A study of Homo sapiens with 6 samples.

Results

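Tight junctions seal the space between neighbouring epithelial cells just below their apical surface. Claudins form the strands of the seal and set which ions pass, occludin and tricellulin stabilise the strands, and cytoplasmic scaffolds such as ZO-1 tie them to actin. The Crumbs, PAR and Scribble complexes divide the cell surface into apical and basolateral parts and place the junction between them, and mesenchymal-like carcinoma cells are known for having lost much of this machinery. The genes described here are 40 tight junction and polarity genes, taken from the platform annotation as the probe sets whose single gene symbol was one of them. Of the 40, 39 had such a probe set, 89 probe sets in all, out of 54613 probe sets and 19775 genes on the array. F11R, which encodes junctional adhesion molecule A, was not analysed here.

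The cells were of the breast cancer line MDA-MB-231, long established in culture and of basal, mesenchymal-like character. They carried a lentivirus for GATA3 together with enhanced green fluorescent protein (3 arrays) or for the fluorescent protein alone (3 arrays), and both populations were sorted for fluorescence and harvested 2 days after plating in medium with 10% serum. GATA3 is a transcription factor of luminal mammary cells, and the title of the series links it to a shift from a basal towards a luminal state. All cells thus derived from 1 line, were virus-transduced and fluorescent, and the labels do not state whether replicates were separate cultures, so p-values cover only the scatter from array to array, possibly of technical origin. All levels are on the log2 scale of GCRMA, a normalisation that subtracts a background predicted for each probe, and a level over 4 was taken as detected.

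GATA3 itself ran against the group label. Its brightest probe set read 7.93, 7.94 and 7.32 on the arrays labelled GATA3, against 9.37, 9.35 and 9.45 on the GFP control arrays (log2 change -1.66, limma adjusted p 0.00238). Whether its probes can read the introduced sequence was not tested, and every direction given here rests on the labels. GATA3 replicate 3 stood apart, with correlations of 0.984 to 0.986 to the other GATA3 arrays, against 0.997 between those. It alone carries a second date in its raw-file label. The markers fixed for the line, VIM, CD44, CAV1, AXL and MSN, were detected on all arrays, with a summed level of 16.25 to 16.49 on the arrays labelled GATA3 and 16.44 to 16.55 on the GFP control arrays, and VIM and MSN fell. All 7 endothelial and all 5 measured leukocyte markers stayed under the detection level on every array, as did 4 of 6 fibroblast markers. In the luminal epithelial list, EPCAM and CDH1 alone moved with the groups. The summed level of the list was 13.01 to 13.25 on the arrays labelled GATA3, against 10.84 to 11.09 on the GFP control arrays. EPCAM, which read up to 13.22, made up most of that sum and was higher (log2 change 2.16). CDH1 was detected only on the arrays labelled GATA3 and could be tested only through them. ESR1 did not pass the threshold, and PGR and FOXA1 were undetected on every array. The part of this list in the results below was not tested.

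Each of the 40 genes that passed the test was higher in the arrays labelled GATA3. Of the 39 genes, 25 had a probe set over the detection level on at least 3 of the 6 arrays and could be tested, and 14 of these rose. None fell, and 11 did not pass. Across all 10814 genes tested in the same fit, 14.8% rose and 14.5% fell. These counts, 1601 and 1571 genes, ranged over 1079 to 2051 and 910 to 1787 with 1 array left out, the lower calls being 976, 932 and 910 without GFP control replicates 1, 2 and 3. The tested members had a median log2 change of 0.51, against -0.02 for all genes. The members were chosen with results of these data known, and 1 of them, CGN, passed the filter only through the arrays labelled GATA3, so that it had to be higher. Without it 13 of 24 rose. In 8 of the 14, CGN among them, the change was at least 2-fold, and the median of 0.51 also includes CGN. These are RNA levels of whole cultures, in which more cells expressing a gene and more RNA per cell cannot be told apart.

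**Figure D1:**
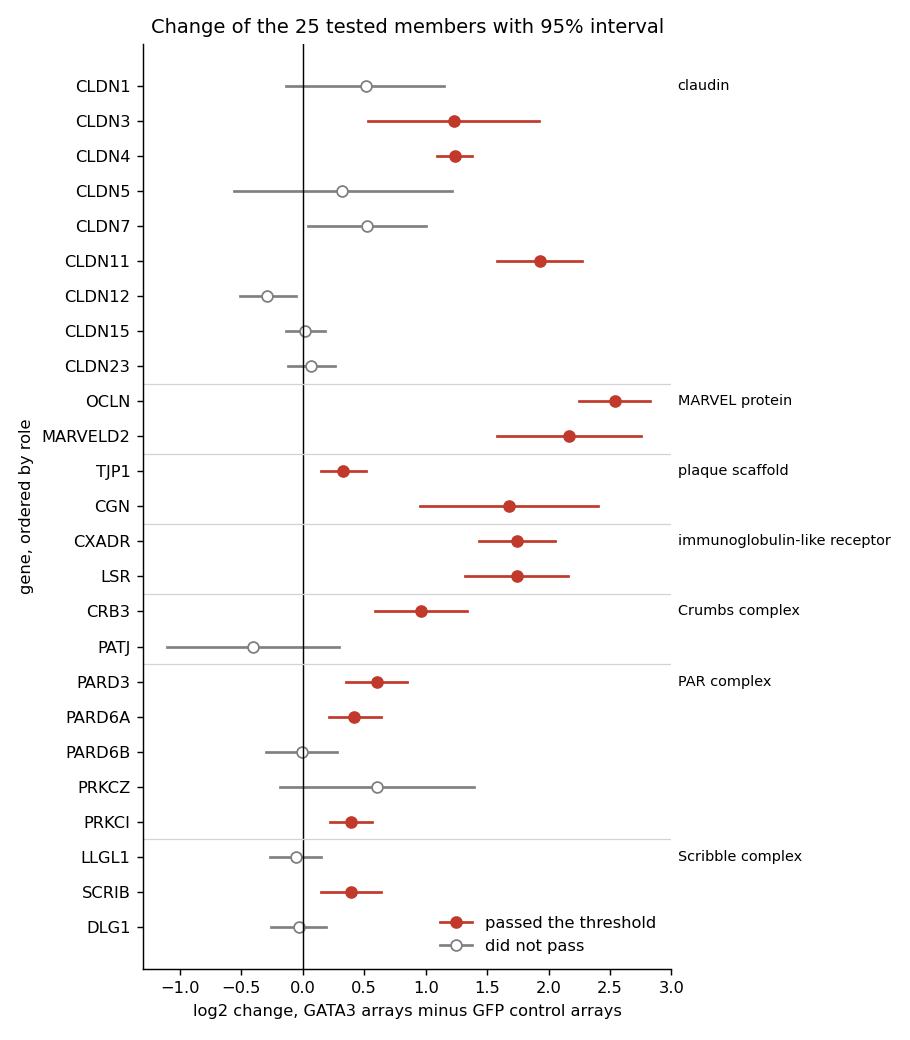
Fitted log2 change (arrays labelled GATA3 minus GFP control arrays) of the 25 tested genes, ordered by role, with 95% intervals from limma, not adjusted for the number of tests. Filled red points passed the adjusted threshold of 0.05 and open grey points did not. All 14 red points lie to the right of 0, with OCLN farthest at 2.54.

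Among the members detected in both groups, the 5 that rose most by their brightest probe set were OCLN, MARVELD2, CLDN11, CXADR and LSR. These encode membrane proteins. Of the neighbouring genes, 2 pairs stood among the 14 that rose. MARVELD2 and OCLN lie side by side on chromosome 5, and CLDN3 and CLDN4 on chromosome 7, with 0 protein-coding genes between the members of each pair in the RefSeq annotation of GRCh38.p14. CLDN6 and CLDN9, and CLDN16 and CLDN1, also had 0 such genes between them, and none of these rose. CLDN1 did not pass, and CLDN6, CLDN9 and CLDN16 were not tested. The promoter windows of MARVELD2, OCLN, CLDN3, CLDN4 and CRB3 are printed because these genes rose. Another reason was that CRB3 and OCLN hold the letters of an E-box that the repressors ZEB1 and SNAI1 are known to bind. Each window runs from 250 bases before the start to 50 after it, 5′ to 3′ on the gene's strand, from RefSeq (GRCh38.p14). Capitals mark CAGGTG or CACCTG, which are the same E-box on the 2 strands, or GATA with A or T before it and A or G after it on either strand.
MARVELD2 (chr5:69414866-69415165, plus strand): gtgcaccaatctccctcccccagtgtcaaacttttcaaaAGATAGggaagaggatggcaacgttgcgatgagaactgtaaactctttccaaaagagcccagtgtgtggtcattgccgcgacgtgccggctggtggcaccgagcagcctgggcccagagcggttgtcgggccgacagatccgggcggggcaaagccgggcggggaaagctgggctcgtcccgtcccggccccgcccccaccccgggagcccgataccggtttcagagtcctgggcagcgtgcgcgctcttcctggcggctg
OCLN, the window with the most matches (chr5:69492540-69492839, plus strand): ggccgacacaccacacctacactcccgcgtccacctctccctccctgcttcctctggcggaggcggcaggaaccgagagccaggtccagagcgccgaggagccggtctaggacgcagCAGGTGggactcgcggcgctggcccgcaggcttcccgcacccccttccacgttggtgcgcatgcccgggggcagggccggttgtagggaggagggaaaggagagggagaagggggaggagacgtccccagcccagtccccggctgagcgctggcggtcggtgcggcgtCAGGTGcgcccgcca
CLDN3 (chr7:73770221-73770520, minus strand): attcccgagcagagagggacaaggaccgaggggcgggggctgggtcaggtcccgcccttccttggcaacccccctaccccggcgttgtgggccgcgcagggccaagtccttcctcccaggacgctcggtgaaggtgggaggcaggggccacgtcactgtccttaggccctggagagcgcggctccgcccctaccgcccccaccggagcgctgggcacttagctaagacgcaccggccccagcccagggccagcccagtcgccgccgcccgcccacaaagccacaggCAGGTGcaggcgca
CLDN4 (chr7:73830746-73831045, plus strand): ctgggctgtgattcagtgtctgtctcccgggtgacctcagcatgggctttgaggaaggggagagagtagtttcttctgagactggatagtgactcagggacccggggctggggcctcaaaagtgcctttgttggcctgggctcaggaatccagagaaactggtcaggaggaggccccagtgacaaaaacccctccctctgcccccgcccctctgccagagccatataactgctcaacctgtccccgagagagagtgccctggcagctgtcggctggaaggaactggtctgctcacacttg
CRB3 (chr19:6464021-6464320, plus strand): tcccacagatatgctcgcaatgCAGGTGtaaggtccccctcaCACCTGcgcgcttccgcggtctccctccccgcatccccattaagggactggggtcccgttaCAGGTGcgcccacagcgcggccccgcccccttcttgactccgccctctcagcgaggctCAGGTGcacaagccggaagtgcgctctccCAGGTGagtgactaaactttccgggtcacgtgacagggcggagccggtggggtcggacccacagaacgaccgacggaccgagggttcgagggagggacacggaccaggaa

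CRB3 held the E-box letters at 5 places, all before its start, and the OCLN window at 2. CLDN3 held them once, at position 37 after its start, and neither MARVELD2 nor CLDN4 held them. MARVELD2 held 1 GATA match, at position -211 relative to its start. A window was at hand for 11 of the 14 genes that rose, and 5 of these held an E-box (CLDN3, OCLN, TJP1, CRB3 and PARD6A). Among tested genes that did not pass, it was 4 of 8 (CLDN7, PATJ, PRKCZ and DLG1), of which CLDN7 held 5 matches around 1 start. Among members not tested it was 5 of 8. A GATA match was held by 2 of 11, 1 of 8 and 5 of 8 genes, in the same order. E-box letters stood in 20.6% of all 35116 promoter windows and in 37.5% of the 16 windows of genes that rose, against 31.2% of the 16 windows of tested genes that did not pass. GATA matches stood in 25.0% of all windows and in 12.5% of those of genes that rose, against 6.25% of those of tested genes that did not pass. The grainyhead-like motif AACCGGTT stood in 0.134% of all windows and in none of the members'. G and C made up 35.7% to 84.0% of the 47 windows of members and 59.0% to 72.0% of the 5 printed, and a match is only a description of the letters.

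By the brightest probe set of each gene, occludin and tricellulin rose more than the other members. OCLN, the first transmembrane protein found in tight junctions, read 10.97, 11.21 and 10.90 on the arrays labelled GATA3, against 8.53, 8.32 and 8.62 on the GFP control arrays. The groups lay far apart and replicates close together, a log2 change of 2.54 (SE 0.12, 5.81-fold, adjusted p 0.000108). A dimmer probe set read 7.65, 7.93 and 7.50 on the arrays labelled GATA3, against 4.86, 4.55 and 4.80 on the GFP control arrays, and rose by 2.95. Another rose by 1.87. The annotation also holds a partial copy, OCLNP1, on the same chromosome, and whether its RNA reaches these probe sets was not tested. MARVELD2 encodes tricellulin, which seals the corners where several cells meet. It read 7.95, 8.10 and 7.54 on the arrays labelled GATA3, against 6.0, 5.29 and 5.80 on the GFP control arrays (log2 change 2.17, SE 0.23, 4.49-fold, adjusted p 0.00223). Its second, dimmer probe set was over the detection level on 2 GATA3-labelled arrays (5.22 and 4.56) and on no GFP control array, and was not tested. MARVELD3, the third member of this family, stayed at or below 2.30 on every array by all 3 probe sets.

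**Figure D2:**
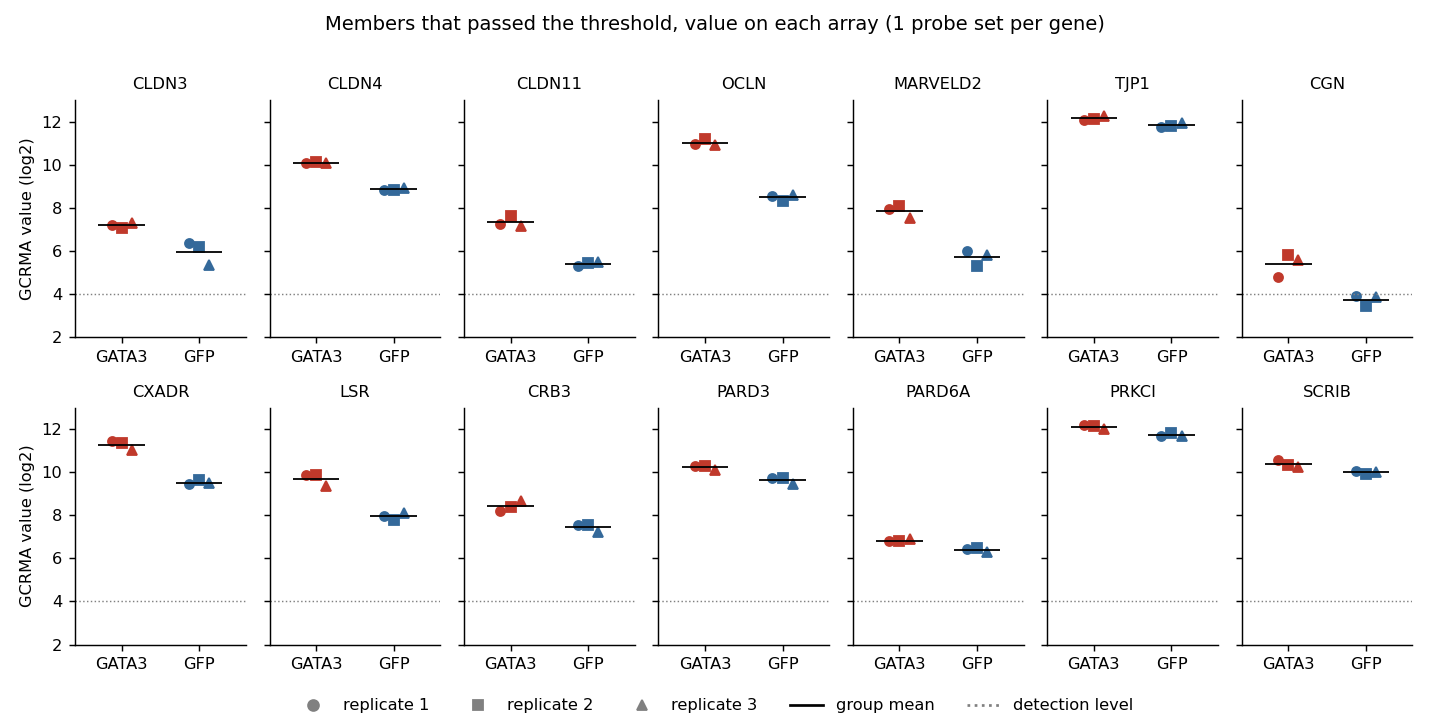
GCRMA value (log2) on each array for the 14 genes that passed the threshold, with arrays labelled GATA3 in red on the left and GFP control arrays in blue on the right of each panel. Symbols mark replicates, black bars group means and the dotted line the detection level of 4. In every panel all red points lie above all blue points, and CGN alone has its GFP control arrays under the detection level. The panels show only genes that passed, so this separation is no further support.

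Of 17 claudin genes, 9 could be tested and 3 rose, beside 14.8% of all genes tested. With so few claudins, nothing is read from this count. CLDN4, a sealing claudin of tight epithelia, read 10.08, 10.15 and 10.07 on the arrays labelled GATA3, against 8.83, 8.82 and 8.94 on the GFP control arrays. That is a log2 change of 1.24 (SE 0.06, 2.36-fold, adjusted p 0.000117) with little spread in either group. CLDN11, best known from myelin and the blood-testis barrier, read 7.24, 7.60 and 7.17 on the arrays labelled GATA3, against 5.28, 5.45 and 5.50 on the GFP control arrays (log2 change 1.93, SE 0.14, 3.80-fold, adjusted p 0.000517). Its 2 other probe sets read 2.16 on all 6 arrays. CLDN3, another sealing claudin and the chromosomal neighbour of CLDN4, read 7.20, 7.06 and 7.28 on the arrays labelled GATA3, against 6.37, 6.16 and 5.34 on the GFP control arrays. The GATA3-labelled values were tight and GFP control replicate 3 was low (log2 change 1.23, SE 0.28, adjusted p 0.0271). This brightest probe set of CLDN3 carries a suffix for probes that can also bind other transcripts. Its other probe set read 5.76, 5.30 and 6.15 on the arrays labelled GATA3 and was under the detection level on all GFP control arrays, at least 3.33-fold higher. It passed the filter only through the arrays labelled GATA3, so that it had to be higher.

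The other 6 tested claudins did not pass. CLDN7, a claudin of many simple epithelia, read 7.50, 7.56 and 6.90 on the arrays labelled GATA3, against 6.91, 6.75 and 6.73 on the GFP control arrays (log2 change 0.52, adjusted p 0.107). Only GATA3 replicate 3 lay among the GFP control values, and without that array CLDN7 passed (log2 change 0.73, adjusted p 0.00506). CLDN1, needed for the skin barrier, read 5.26, 6.11 and 5.38 on the arrays labelled GATA3, against 5.22, 5.21 and 4.80 on the GFP control arrays, without overlap (log2 change 0.51, 95% interval -0.14 to 1.15, adjusted p 0.206, and 0.87 with an adjusted p of 0.0909 by its other probe set). CLDN12, a claudin linked to calcium transport in gut, read 9.52, 9.52 and 9.26 on the arrays labelled GATA3, against 9.75, 9.64 and 9.77 on the GFP control arrays. Its groups were apart with the GFP control arrays higher, but it did not pass (log2 change -0.29, 95% interval -0.51 to -0.06, adjusted p 0.0706). CLDN5, the claudin of brain endothelium, spread from 5.43 to 6.79 on the arrays labelled GATA3, against 5.52 to 5.75 on the GFP control arrays. CLDN23 gave a change of 0.07 with a 95% interval of -0.12 to 0.26. CLDN15 read 6.91 to 6.96 on the arrays labelled GATA3 and 6.93 on all 3 GFP control arrays. The 8 claudins not tested were CLDN2, CLDN6, CLDN8, CLDN9, CLDN10, CLDN14, CLDN16 and CLDN18. Several of these are known from kidney, stomach or inner ear. Their highest value on any array was 3.79, for CLDN14 on GATA3 replicate 3, and 6 of them read 2.16 throughout.

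Of the immunoglobulin-like receptors with a probe set, CXADR and LSR rose and JAM2 and JAM3 read 2.16 on every array. CXADR, the receptor of coxsackievirus and adenovirus and a tight junction adhesion protein, read 11.44, 11.35 and 11.02 on the arrays labelled GATA3, against 9.44, 9.63 and 9.51 on the GFP control arrays (log2 change 1.74, SE 0.12, 3.34-fold, adjusted p 0.000494). Its 2 other tested probe sets rose by 1.70 and 1.83. LSR, also called angulin-1, brings tricellulin to tricellular contacts. It read 9.86, 9.87 and 9.37 on the arrays labelled GATA3, against 7.97, 7.79 and 8.12 on the GFP control arrays (log2 change 1.74, SE 0.17, 3.34-fold, adjusted p 0.00148). Both receptors had all GATA3-labelled values well above all GFP control values.

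Of the related receptors outside the 40 genes, ILDR1, IGSF5 and JAML read at most 2.16 and were not tested. The 3 that could be tested fell, beside 14.5% of all genes tested. Nothing is read from so few genes. ILDR2, an angulin like LSR, read 5.69, 5.79 and 5.17 on the arrays labelled GATA3, against 6.87, 6.54 and 7.19 on the GFP control arrays (log2 change -1.31, adjusted p 0.0123, but 0.0503 without GFP control replicate 1). CLMP, from the same receptor family as CXADR, read 6.73, 6.40 and 6.95 on the arrays labelled GATA3, against 8.62, 8.80 and 8.68 on the GFP control arrays (log2 change -2.01, adjusted p 0.000641). ESAM, an adhesion molecule of that family known from endothelium, read 6.54, 6.52 and 6.14 on the arrays labelled GATA3, against 8.64, 8.58 and 8.45 on the GFP control arrays (log2 change -2.15, adjusted p 0.00031). Endothelial markers were under the detection level on every array, at a highest value of 2.26.

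**Figure D3:**
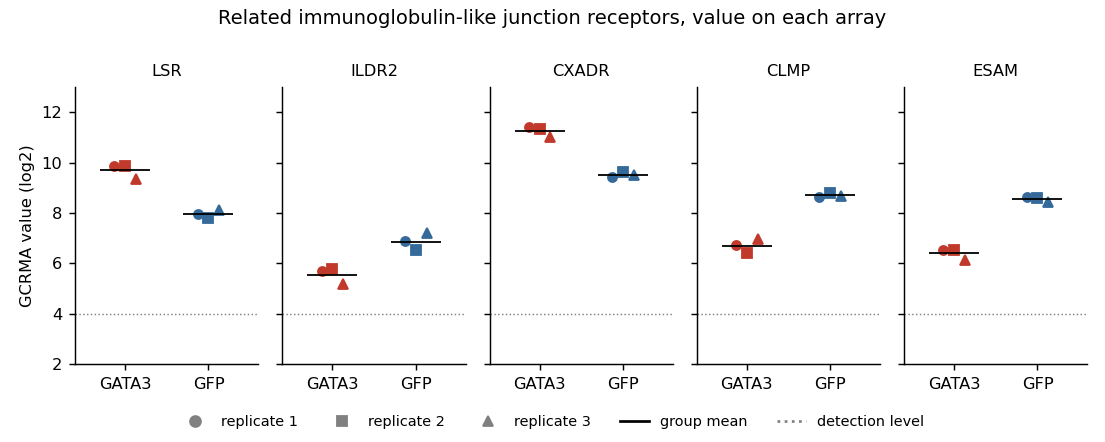
GCRMA value (log2) on each array for LSR and its relative ILDR2, and for CXADR and its relatives CLMP and ESAM, with arrays labelled GATA3 in red on the left and GFP control arrays in blue on the right of each panel. Symbols mark replicates, black bars group means and the dotted line the detection level of 4. LSR and CXADR are higher in red, and ILDR2, CLMP and ESAM are higher in blue, with no overlap in any panel. These genes all passed the threshold, so this separation is no further support.

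These 3 receptors came from a list of 47 further junction and polarity genes, of which 39 had a probe set and 28 could be tested. In that list 2 rose, 5 fell and 21 did not pass, beside 14.8% and 14.5% of all genes tested, with a median log2 change of 0.01. Its counts are small, and nothing is read from them about the list. EPB41L5, a FERM-domain protein that binds Crumbs, rose by 1.76 (adjusted p 0.000127), although 1 of its probe sets changed by 0.07 and did not pass. VAPA, a membrane-trafficking protein that binds occludin, rose by 0.32 (adjusted p 0.0127). This call was lost without GFP control replicate 2 or 3 (adjusted p 0.0553 and 0.0529), and its 2 other tested probe sets did not pass, with log2 changes of 0.17 and 0.22. CLDND1, a multi-span membrane protein related to claudins, changed by -0.68 (adjusted p 0.000256). YBX3, a nucleic acid binding protein also known as ZONAB for its binding to ZO-1, was the fifth that fell (log2 change -0.32, adjusted p 0.0106).

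Of the scaffold genes, TJP1 and CGN passed the test. TJP1 encodes ZO-1, the scaffold that joins claudins and occludin to actin. It read 12.10, 12.13 and 12.27 on the arrays labelled GATA3, against 11.74, 11.82 and 11.94 on the GFP control arrays. The groups did not overlap, but the log2 change was 0.33 (SE 0.07, adjusted p 0.0236), and a second probe set with 0.39 did not pass (adjusted p 0.142). The call was lost without GFP control replicate 1 or 2 or GATA3 replicate 2, with adjusted p-values of 0.0724, 0.0871 and 0.0627. CGN encodes cingulin, which connects ZO-1 to myosin. It read 4.80, 5.80 and 5.59 on the arrays labelled GATA3, against 3.88, 3.42 and 3.87 on the GFP control arrays, all 3 GFP control values under the detection level. CGN was at least 2.63-fold higher (adjusted p 0.0113). It passed the filter only through the arrays labelled GATA3, so that it had to be higher. Its second probe set stayed under the detection level on all arrays. TJP3 (ZO-3) read at most 2.95 and CGNL1 (paracingulin) at most 2.18, and neither was tested.

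The polarity genes among the 40 members changed little, except for CRB3. CRB3, the Crumbs protein of epithelia and an organiser of the apical membrane, read 8.22, 8.38 and 8.65 on the arrays labelled GATA3, against 7.57, 7.57 and 7.23 on the GFP control arrays. All GATA3-labelled values were higher, with a log2 change of 0.96 (SE 0.15, 1.95-fold, adjusted p 0.0081). PATJ, a scaffold of the same complex, read 6.09, 6.14 and 5.19 on the arrays labelled GATA3, against 6.11, 6.12 and 6.42 on the GFP control arrays. GATA3 replicate 3 was low and the groups overlapped (log2 change -0.41, 95% interval -1.11 to 0.29, adjusted p 0.327).

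In the PAR complex, PARD3, PARD6A and PRKCI rose slightly and PARD6B and PRKCZ did not pass. PARD3, the scaffold that recruits the complex to the junction, read 10.30, 10.31 and 10.13 on the arrays labelled GATA3, against 9.75, 9.73 and 9.46 on the GFP control arrays (log2 change 0.60, SE 0.10, adjusted p 0.01). Of its 3 other tested probe sets, 1 rose by 0.55, 1 changed by 0.71 without passing (adjusted p 0.0645) and 1 changed by -0.04 (adjusted p 0.893). PRKCI, an atypical protein kinase C, read 12.19, 12.15 and 12.00 on the arrays labelled GATA3, against 11.69, 11.82 and 11.67 on the GFP control arrays (log2 change 0.39, SE 0.07, adjusted p 0.012). The call was lost without GFP control replicate 1 or 3 (adjusted p 0.0505 and 0.0513). PRKCZ, the other atypical kinase, read 7.70, 7.81 and 8.86 on the arrays labelled GATA3, against 7.57, 7.55 and 7.45 on the GFP control arrays. The groups did not overlap, but GATA3 replicate 3 was far above the other 2 and the change of 0.60 did not pass (adjusted p 0.221).

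PARD6A and PARD6B encode adaptors of the same kind, which bind the kinase and CDC42. PARD6A read 6.79, 6.79 and 6.90 on the arrays labelled GATA3, against 6.44, 6.48 and 6.28 on the GFP control arrays (log2 change 0.42, SE 0.09, adjusted p 0.0187). The call was lost without GFP control replicate 1 or 3 or GATA3 replicate 2, with adjusted p-values of 0.0539, 0.0556 and 0.0555. PARD6B read 9.70, 9.72 and 9.47 on the arrays labelled GATA3, against 9.52, 9.57 and 9.84 on the GFP control arrays, and the groups overlapped (log2 change -0.01, 95% interval -0.30 to 0.28). A dimmer PARD6B probe set was over the detection level on 2 GFP control arrays (4.63 and 4.79) and on no GATA3-labelled array, and was not tested.

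In the Scribble complex, which marks the basolateral side, SCRIB alone passed the test. SCRIB, its name-giving scaffold, read 10.59, 10.36 and 10.24 on the arrays labelled GATA3, against 10.05, 9.93 and 10.03 on the GFP control arrays (log2 change 0.39, SE 0.10, adjusted p 0.0372). This was the weakest of the 14 calls, lost when any array but GATA3 replicate 3 was removed. Its adjusted p-values were then 0.088, 0.125 and 0.105 without GFP control replicates 1, 2 and 3, and 0.0518 and 0.0921 without GATA3 replicates 1 and 2. DLG1, a scaffold of the basolateral membrane, gave a change of -0.03 with a 95% interval of -0.26 to 0.19, and all 5 of its tested probe sets had a negative change without passing. LLGL1, which PAR kinases keep off the apical side, gave -0.06 (95% interval -0.27 to 0.15) and overlapped between the groups, as did its dimmer tested probe set. Its relative LLGL2 read at most 3.19 and was not tested.

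Different probe sets of a gene mostly gave the same picture. Of the 89 probe sets 43 could be tested, of which 21 rose, 0 fell and 22 did not pass. Over all 23785 probe sets tested, 25.3% passed in either direction. Of these, 1 each of CLDN3 and CGN passed the filter only through the arrays labelled GATA3. All 3 tested probe sets of OCLN and all 3 of CXADR rose. PARD3, TJP1 and PRKCI each had at least 1 that did not pass.

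**Figure D4:**
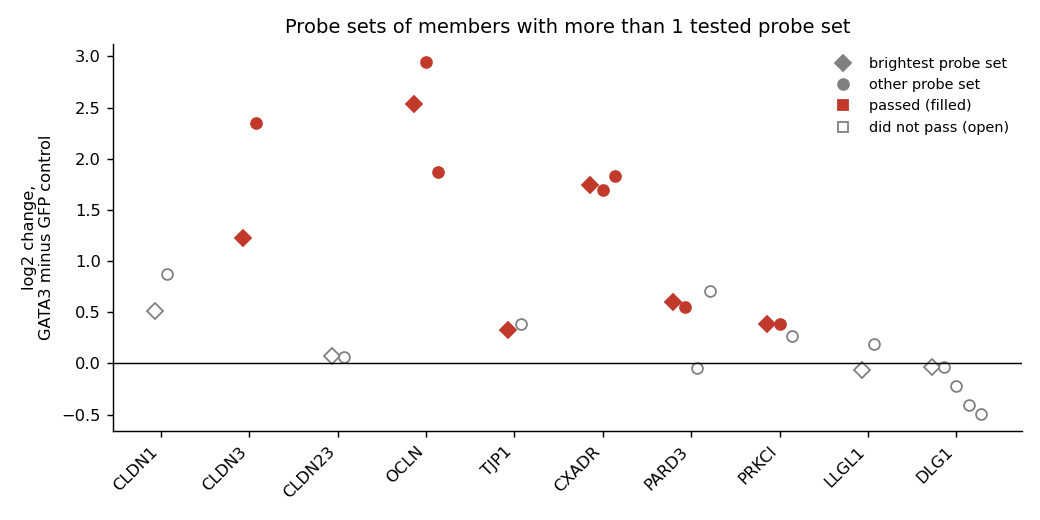
Log2 change (arrays labelled GATA3 minus GFP control arrays) of each tested probe set, for the genes with more than 1. Diamonds are the brightest probe set of a gene, circles the others, filled red symbols passed the threshold and open grey ones did not. OCLN spans 1.87 to 2.95 with every symbol filled, while PARD3 reaches from -0.04 to 0.71.

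Grouped by where the proteins sit, and without CGN, 8 of 14 tested membrane proteins rose, with log2 changes of 0.96 to 2.54 and a median of 1.74 among those 8. Of 10 tested cytoplasmic proteins 5 rose, by 0.33 to 0.60 with a median of 0.39. Among all genes tested, 14.8% rose. The medians leave out the members that did not pass, at -0.29 to 0.52 among membrane and -0.41 to 0.60 among cytoplasmic proteins. This grouping was chosen after the values were seen, and the difference was not tested. In 8 of the 13 genes other than CGN (CLDN4, CLDN11, OCLN, MARVELD2, CXADR, LSR, CRB3 and PARD3) the call held in all 6 fits with 1 array left out. The call of CLDN3 was lost without GFP control replicate 2 (adjusted p 0.0694) or without GATA3 replicate 1, 2 or 3 (0.0759, 0.0712 and 0.0645), at log2 changes of 1.18 to 1.33. Without GATA3 replicate 3, the array that stood apart, 14 genes again rose. They shared 13 with the 14 named here, CLDN7 taking the place of CLDN3.

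**Figure D5:**
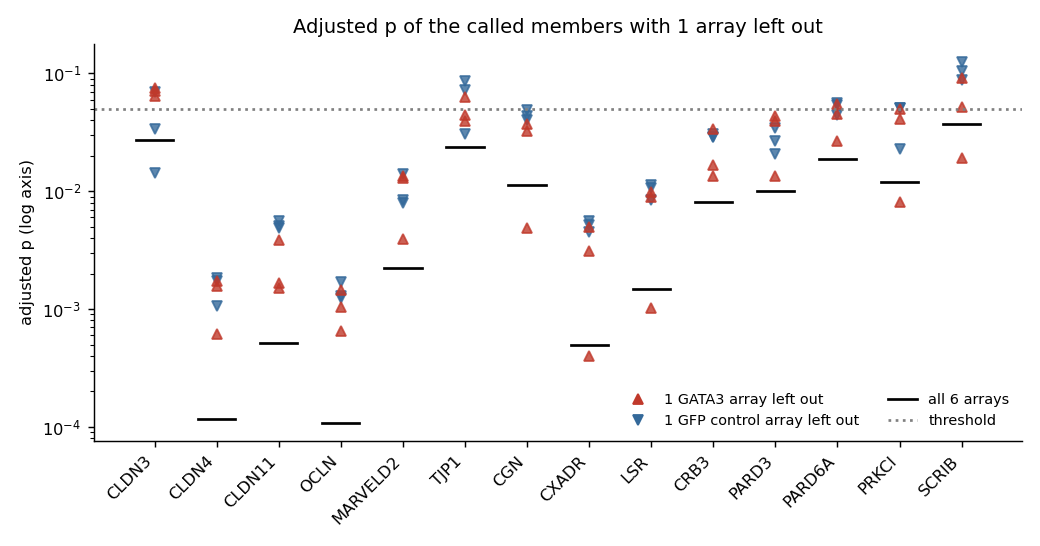
Adjusted p from limma (log axis) of the 14 genes that rose, with all 6 arrays (black bars) and with 1 array left out (red upward triangles for arrays labelled GATA3, blue downward triangles for GFP control arrays). The dotted line is the threshold of 0.05. OCLN and CLDN4 are lowest with all 6 arrays, and CXADR is lowest without GATA3 replicate 3. CLDN3, TJP1, PARD6A, PRKCI and SCRIB cross the line.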

How the data were processed

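Biotin-labelled RNA of 6 samples was hybridised to Affymetrix arrays in single colour, 54675 probe sets each, per the labels' protocols. The deposited log2 values were made by the authors with GCRMA, according to the submitters' processing notes. The version of GCRMA is not given in the sources used here. That the scale is log2 was read from the range of the values, which no header states. GCRMA subtracts a background predicted from probe sequence and left 18325 to 18892 probe sets per array at a floor of 2.16. Differences among values at that floor cannot be seen.

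The values were not scaled again, and 62 control probe sets were dropped. The 23785 probe sets over 4 on at least 3 of 6 arrays were tested. Arrays labelled GATA3 were compared with GFP control arrays in limma 3.58.1 (R 4.3.3; lmFit, eBayes with intensity trend, no covariates), with Benjamini-Hochberg adjustment over all tested probe sets and a threshold of 0.05. A gene was taken from the brightest of its tested probe sets by the mean over all arrays. Where a group was undetected on all arrays, the fold was a lower bound against 4. Symbols came from the platform annotation. Members and lists were chosen with earlier results of these data known. All members are accounted for, and of the further list the 6 called genes with the largest change were named by rule (ESAM, CLMP, EPB41L5, ILDR2, CLDND1 and VAPA), with YBX3 added after its values were seen. The limma step was tested on simulated data. Filters, scalings, weights, the replicate block, left-out arrays and probe set choices were varied. Protein features were not analysed here.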

Additional observations from a re-analysis of the deposited data

How the results depend on the processing

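The count of 14 genes that rose was 10 to 14 with 1 array left out and 9 without a filter on low values, where 39 genes were tested and CLDN3, TJP1, CGN, PRKCI and SCRIB did not pass. It was 10 of 20 tested when only probe sets ending in plain _at were kept and 11 with the replicate block, which lost CLDN3, PARD6A and SCRIB (adjusted p 0.0659, 0.0873 and 0.0602). Deviations of same-numbered arrays from their group means correlated at -0.135, 0.159 and -0.109. With 3 arrays per group, and GATA3 replicate 3 standing apart, this cannot settle whether the numbers pair the arrays. No member changed sign and passed under any alternative run. CLDN12 was the 1 member called lower after quantile scaling and after cyclic loess (1 each). With array weights 2 were lower, CLDN12 and LLGL1, but the weights did not converge. CLDN7 passed after quantile scaling, median centring and array weights, and CLDN1 with array weights or the mean of its probe sets. Of the further junction genes, 2 rose in the fit reported, against 1 without a filter, 6 after quantile scaling, 5 after cyclic loess, 4 after median centring, 7 with array weights, 1 with plain _at probe sets, 4 with the mean of probe sets and 1 to 4 with 1 array left out. The 5 that fell became 8 with array weights, 3 with the replicate block (ILDR2 and YBX3 lost) and 9 with the mean of probe sets. Apart from the changes of count that fewer tested genes or fewer arrays bring, the cause of these shifts was not tested. Dim genes near the floor, the 14 untested members above all, are limited by signal over background.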

Other observations

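Genes beside the adjacent pairs that rose, and around PRKCI with CLDN11 and CXADR with JAM2, were looked up after the values of the pairs had been seen. Among all genes tested, 14.8% rose and 14.5% fell. Beside MARVELD2 and OCLN on chromosome 5, RAD17 read 10.55 ± 0.2 on the arrays labelled GATA3 and 10.61 ± 0.07 on the GFP control arrays (SD, n = 3 each; limma adjusted p 0.702). AK6, another gene nearby, gave a log2 change of 0.21 (limma adjusted p 0.0913), and neither passed. Beside CLDN3 and CLDN4 on chromosome 7, the neighbour ABHD11 rose by 0.54 (limma adjusted p 0.00283), STX1A changed by -0.54 (limma adjusted p 0.00916) and BUD23 did not pass (-0.16). PRKCI and CLDN11 on chromosome 3 have 1 gene between them, SKIL, an inhibitor of SMAD signalling, which did not pass (0.58, limma adjusted p 0.0822). RPL22L1, 2 genes beyond CLDN11, changed by -0.21 (limma adjusted p 0.0291). The next gene after it, EIF5A2, encodes a translation factor. It rose by 1.56 and read 10.49 ± 0.01 on the arrays labelled GATA3, against 8.93 ± 0.13 on the GFP control arrays (SD, n = 3 each; limma adjusted p 0.000134). On the other side of PRKCI, SEC62, GPR160 and PHC3 did not pass. Of the tested genes around CXADR and JAM2 on chromosome 21, SAMSN1 rose from the floor. NRIP1, C21orf91, MRPL39 and APP fell, and USP25, BTG3, ATP5PF and GABPA did not pass.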
